A study of Mus musculus with 25 samples.

Results

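The 2 groups compared were NEMOIEC-KO Il23a-/- and NEMOIEC-KO Il12b-/- mice, which both lack NEMO (gene Ikbkg, a scaffold that the IκB kinases need to activate NF-κB) in intestinal epithelial cells and differ in the cytokine subunit gene that is mutated. Their 10 libraries, 5 per genotype, were chosen by the genotype label out of the 25 libraries of the series. Each library came from the distal colon of 1 C57BL/6 mouse aged 6 weeks, kept specific-pathogen-free on regular chow and given no other treatment that the labels name. Nemofl/fl mice, which carry the floxed Ikbkg gene, and NEMOIEC-KO mice with no cytokine mutation (5 libraries each) served as reference, and NEMOIEC-KO Il12a-/- mice (5 libraries) only entered the estimate of the spread. The labels name neither the Cre line that deletes Ikbkg nor the structure of the cytokine alleles, and whole colon holds many cells besides the epithelium in which NEMO was deleted.

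IL-12 and IL-23 are paired cytokines built on the same p40 subunit, encoded by Il12b. IL-12 joins p40 to p35 (Il12a) and drives T cells and innate lymphocytes to make interferon-gamma, whereas IL-23 joins p40 to p19 (Il23a) and sustains lymphocytes that make IL-17 and IL-22. Mice without p40 therefore lack both cytokines, and mice without p19 lack IL-23 but can still make IL-12. Setting the p19 mutants directly against the p40 mutants thus asks what differs in the colon of these mice between loss of IL-23 and loss of IL-12 and IL-23 together. Interferons switch on their targets through transcription factors that bind GAS and ISRE sites in promoters.

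The genes that differed most included many interferon-gamma targets, so the stretch before the start site of 4 interferon-gamma targets is shown. The promoters come from RefSeq (GRCm38.p6), each with the 250 bases upstream of the start, written 5′ to 3′ on the gene's strand. Capitals mark a match to the GAS motif TTCNNNGAA or to the ISRE core (GAAA, any 2 bases, GAAA), searched on both strands. All 4 promoters shown hold a match, which does not hold for every interferon-gamma target. Irf1 has 2 promoter entries, and an entry with a match was printed.
Igtp, chr11:58199306-58199555, plus strand: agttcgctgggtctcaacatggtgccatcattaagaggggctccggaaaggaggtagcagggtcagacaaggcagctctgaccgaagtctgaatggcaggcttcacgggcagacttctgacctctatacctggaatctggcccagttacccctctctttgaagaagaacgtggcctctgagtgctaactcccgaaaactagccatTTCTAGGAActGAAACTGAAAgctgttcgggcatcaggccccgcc
Tgtp1, chr11:48992247-48992496, minus strand: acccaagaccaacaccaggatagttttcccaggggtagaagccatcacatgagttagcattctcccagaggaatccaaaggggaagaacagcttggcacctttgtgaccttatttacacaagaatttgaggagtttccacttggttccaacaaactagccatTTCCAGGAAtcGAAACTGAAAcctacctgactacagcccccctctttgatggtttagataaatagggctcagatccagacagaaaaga
Gbp2, chr3:142620413-142620662, plus strand: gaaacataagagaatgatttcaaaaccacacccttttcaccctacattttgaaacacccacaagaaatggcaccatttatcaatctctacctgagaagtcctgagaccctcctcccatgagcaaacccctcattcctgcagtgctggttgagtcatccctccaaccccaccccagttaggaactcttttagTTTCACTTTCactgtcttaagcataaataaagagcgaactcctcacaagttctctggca
Irf1, chr11:53769764-53770013, plus strand: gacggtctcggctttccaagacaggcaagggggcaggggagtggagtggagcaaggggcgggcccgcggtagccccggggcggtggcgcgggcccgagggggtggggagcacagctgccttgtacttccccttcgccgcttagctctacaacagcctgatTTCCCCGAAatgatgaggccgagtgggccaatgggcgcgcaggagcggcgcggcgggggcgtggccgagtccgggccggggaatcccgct
Igtp and Tgtp1, which encode interferon-inducible GTPases, each hold a GAS match followed by an ISRE match. Gbp2, a guanylate-binding protein gene, holds the ISRE core on the other strand, and Irf1, the gene of an interferon-induced transcription factor, holds a GAS match. The 2 motifs did not overlap in these promoters.

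Il12b RNA did not follow its label. Il12b was at 0.793, 0.790, 1.29, 0.946 and 1.15 FPKM (fragments counted per kilobase of gene, relative to the depth of the library) in replicates 1 to 5 of the libraries labelled Il12b-/-, and at 0.103, 0.132, 0.0868, 0.0791 and 0.0542 FPKM in those labelled Il23a-/-. Every library labelled Il12b-/- lay above every library labelled Il23a-/-, and the difference was -1.33 on the log2(FPKM + 0.5) scale (limma adjusted p = 1.5e-08). Il23a was at 0.196, 0.262, 0.229, 0.150 and 0.232 FPKM in the libraries labelled Il23a-/- and at 0.214, 0.211, 0.317, 0.406 and 0.279 FPKM in the others, with overlapping groups (log2 fold change -0.13 ± 0.16, adjusted p = 0.63). An FPKM over the whole gene does not show a partial deletion, so these values check neither cytokine label. The groups are called p19-labelled (Il23a-/-) and p40-labelled (Il12b-/-) from here on, and each direction given rests on these labels.

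Ikbkg was similar in range in both groups, at 3.62, 3.86, 2.93, 3.13 and 3.17 FPKM in p19-labelled and 3.81, 3.65, 3.76, 4.32 and 4.37 FPKM in p40-labelled replicates 1 to 5 (log2 fold change -0.22 ± 0.13, adjusted p = 0.27). All 10 values lay under the Nemofl/fl mean of 9.08 ± 1.14 FPKM (SD, n = 5).

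Epithelial RNA was abundant in the libraries. Muc2, Vil1, Krt20 and Car1 averaged 1760.0 ± 742, 281 ± 20.3, 694 ± 140.1 and 1012 ± 495 FPKM in p19-labelled libraries (SD, n = 5). The pancreatic genes Pnlip and Cpa1 and the small intestinal Apoa4 averaged at most 0.0518 FPKM in either group. Among the other pancreatic and small intestinal markers, Prss2 and Defa24 averaged 0.172 ± 0.205 and 0.211 ± 0.472 FPKM in p19-labelled and 0.199 ± 0.119 and 0.0804 ± 0.180 FPKM in p40-labelled libraries. The ileal gene Fabp6 averaged 117 ± 108 and 16.9 ± 9.60 FPKM, so not all of these markers were near 0. Cela1, an elastase gene of the same marker list, was abundant in every group, at 249.6 ± 111 FPKM in p19-labelled, 416 ± 146 in p40-labelled and 405 ± 37.9 in Nemofl/fl libraries (SD, n = 5). Summed FPKM lay between 661321 and 744280 per library, and 13529 to 14255 genes reached 1 FPKM. Relative depth, read from the smallest steps of the values, was 0.952 to 1.07 except in p19-labelled replicate 5 (0.729), which also carries another library code (K002000080) than the other 9 libraries (K002000079). By sex-linked RNA, 4 of 5 p19-labelled and 2 of 5 p40-labelled mice were female. In the reference groups this held for 1 of 5 NEMOIEC-KO and 0 of 5 Nemofl/fl mice. NEMOIEC-KO replicates 1 and 2 carry library code K002000079. Its replicates 3, 4 and 5 carry K002000081, as do all Nemofl/fl libraries. The score of 14 smooth muscle genes (mean of log values, centred over all libraries) was -1.32 to -0.569 in 4 p19-labelled libraries but 0.427 in replicate 2, and 0.221 to 0.914 in 4 p40-labelled libraries but -0.958 in replicate 2. The counts below are therefore also given without these 2 libraries, a choice made after seeing the data. Each of the 2 had a score within the range of the other group, so leaving them out can set the groups further apart. Counts without them are no independent check of the counts with all libraries.

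The p19-labelled colon held far more RNA of interferon-gamma targets and of antigen presentation genes than the p40-labelled colon, and less RNA of some drug-metabolising enzymes and of hemoglobins. Of 19266 genes tested, 372 (1.93%) were higher and 613 (3.18%) lower in p19-labelled libraries at an adjusted p below 0.05 (limma, Benjamini-Hochberg), 5.11% in all. Of these, 160 higher and 112 lower genes differed by at least 2-fold. The balance of directions depended on scaling: median-of-ratios scaling gave 526 higher and 315 lower genes, and quantile normalization 410 and 337. The total also moved with single libraries. It was 373, 2710, 493, 440 and 388 without p40-labelled replicates 1 to 5 in turn, 413, 1456, 456, 325 and 2053 without p19-labelled replicates 1 to 5, and 3580 without replicate 2 of both groups. With sex-linked RNA as a term it was 568. In whole tissue, fewer cells of a type and less RNA per cell cannot be told apart.

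Ido1, the tryptophan-degrading enzyme induced by interferon-gamma, showed the largest rise among the genes named. It was at 453, 38.4, 59.7, 437 and 36.7 FPKM in p19-labelled replicates 1 to 5 and at 0.699, 2.03, 1.29, 2.96 and 2.70 FPKM in p40-labelled replicates 1 to 5. Replicates 1 and 4 of the p19-labelled group stood well above the other 3, and even the lowest of them exceeded every p40-labelled library (log2 fold change 5.62 ± 0.80, adjusted p = 0.00017). Ubd, which encodes the ubiquitin-like protein FAT10, was at 177, 27.7, 51.1, 118 and 49.4 FPKM against 0.490, 6.74, 1.87, 3.04 and 1.80 FPKM. The groups again did not overlap (log2 fold change 4.68 ± 0.60, adjusted p = 6.6e-05).

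The interferon-gamma response list held 41 genes tested, and 35 of them rose in p19-labelled libraries while 0 fell, with a median log2 fold change of 1.96 against -0.07 over all genes. In 35 of the 41, all 5 p19-labelled libraries lay above all 5 p40-labelled ones, which held for 1.68% of all genes tested (3.69% for the opposite order). The count was 38 without replicate 2 of both groups and 29 to 39 when single libraries were left out. Irf1, whose promoter is printed above, was at 261, 168, 142, 237 and 165 against 75.0, 90.4, 82.9, 90.5 and 91.6 FPKM (log2 fold change 1.14 ± 0.16, adjusted p = 0.00011), without overlap. Among the 6 members that did not pass, Nos2 (inducible nitric oxide synthase) averaged 6.37 ± 6.29 against 0.344 ± 0.0674 FPKM (SD, n = 5; log2 fold change 2.45 ± 0.73, adjusted p = 0.051).

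Among the other members called was Iigp1, an immunity-related GTPase gene whose product attacks vacuoles that hold microbes. Iigp1 was at 114, 22.8, 16.2, 75.5 and 9.08 FPKM in p19-labelled libraries against 1.75, 2.21, 1.87, 2.08 and 1.97 FPKM in p40-labelled ones (log2 fold change 3.69 ± 0.58, adjusted p = 0.00052). The p40-labelled values were nearly alike, while the p19-labelled values spread widely and stayed above them. Tgtp1 was at 38.8, 6.52, 5.10, 24.7 and 2.38 against 0.158, 0.514, 0.488, 0.348 and 0.179 FPKM (log2 fold change 3.63 ± 0.60, adjusted p = 0.00077). Cxcl9, a chemokine that draws CXCR3-bearing T cells, was at 40.4, 1.99, 9.34, 17.0 and 2.74 against 0.213, 1.43, 0.195, 0.571 and 0.136 FPKM (log2 fold change 3.28 ± 0.67, adjusted p = 0.0067). For Cxcl9 the gap between the groups was narrow, since p19-labelled replicate 2 lay just above p40-labelled replicate 2.

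**Figure D1:**
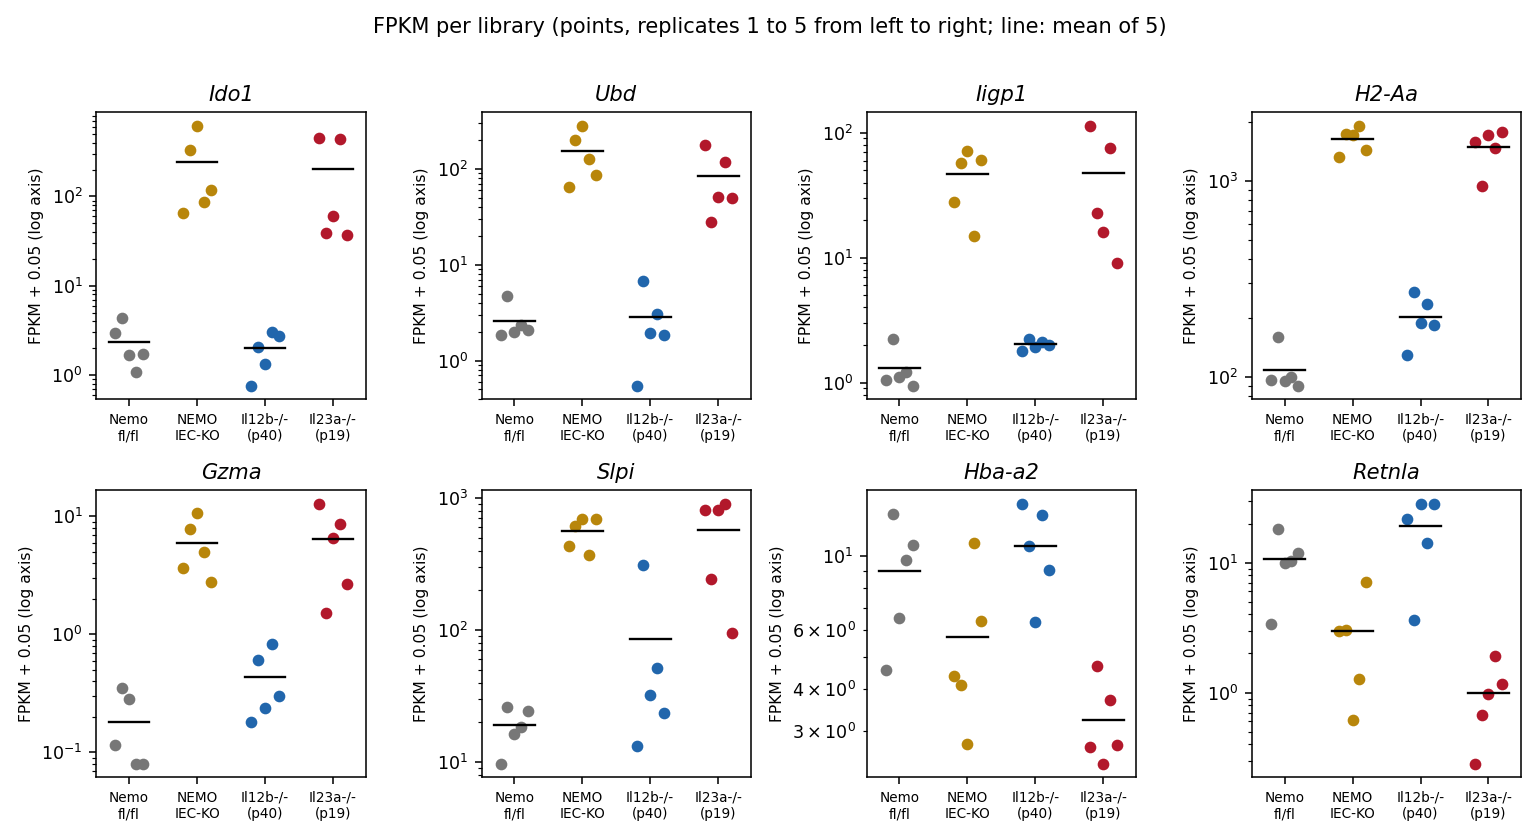
FPKM (log axis, 0.05 added) of 8 genes in each library of 4 genotypes, with points for replicates 1 to 5 from left to right and a line at the mean of 5. Ido1, Ubd, Iigp1, H2-Aa and Gzma lay higher in every Il23a-/- library than in every Il12b-/- library, Hba-a2 and Retnla lower, and Slpi overlapped.

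**Figure D2:**
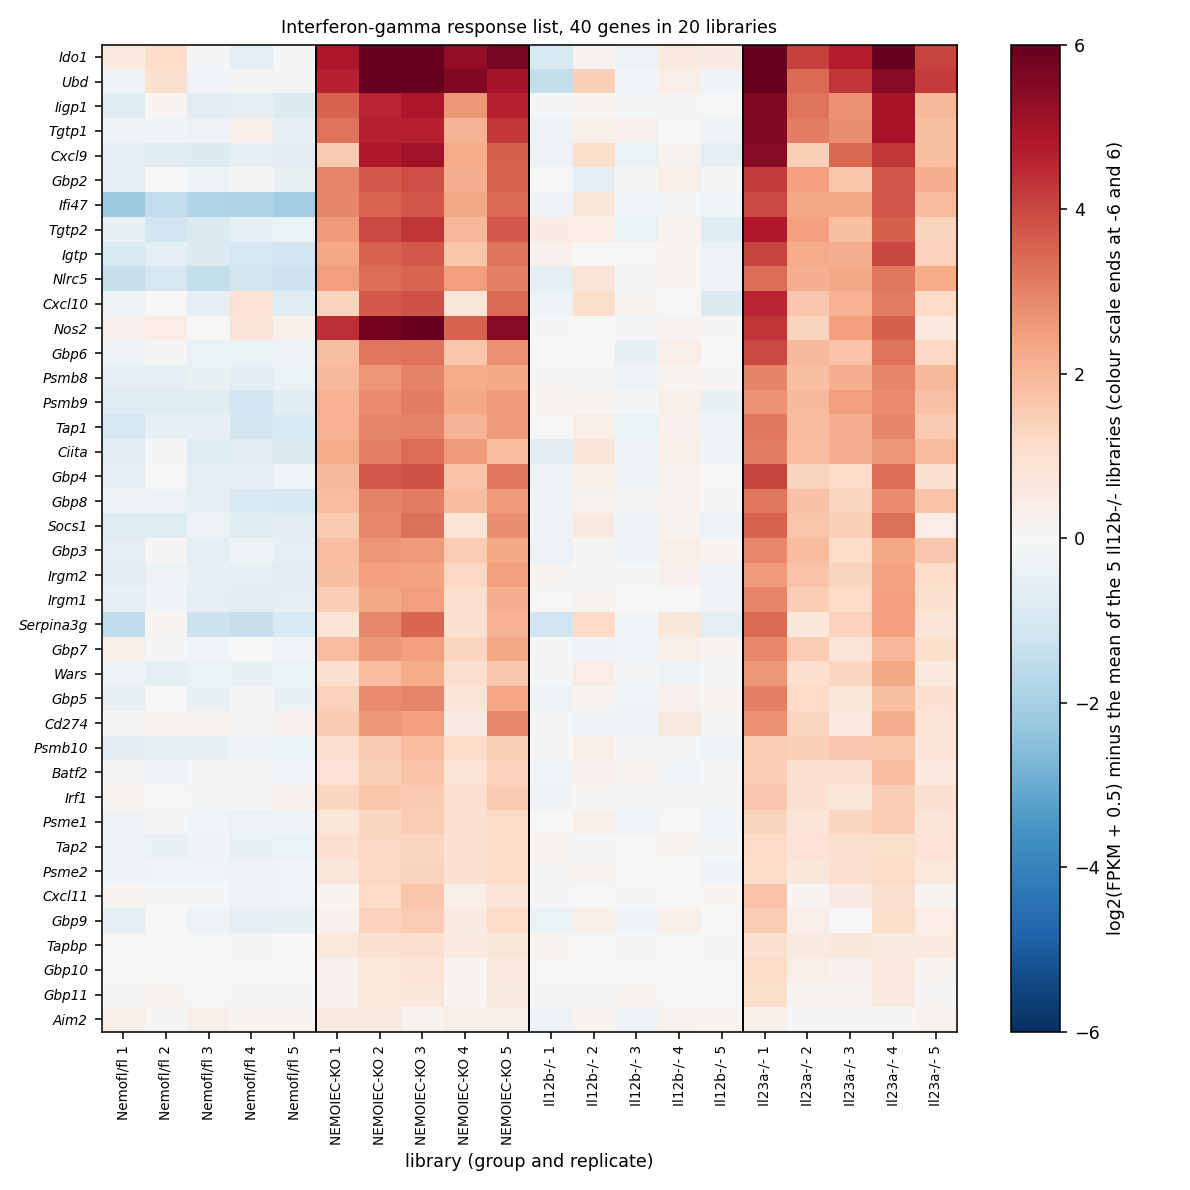
Interferon-gamma response list (40 of its 41 genes, rows) in 20 libraries (columns), as log2(FPKM + 0.5) minus the mean of the 5 Il12b-/- libraries. The Il23a-/- and NEMOIEC-KO columns are red for most genes, and the Nemofl/fl and Il12b-/- columns are near white or pale blue.

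Per library, the median of the 41 genes relative to the p40-labelled mean was 2.95, 1.51, 1.40, 2.47 and 1.07 (log2) in p19-labelled replicates 1 to 5. It was -0.08, 0.16, -0.12, 0.21 and -0.11 in p40-labelled replicates 1 to 5. The NEMOIEC-KO libraries ranged from 1.28 to 2.97 and the Nemofl/fl libraries from -0.45 to -0.08. The p19-labelled libraries thus spanned about the range of NEMOIEC-KO. All p40-labelled libraries lay above Nemofl/fl replicates 1, 3, 4 and 5 (-0.45 to -0.41). Their overlap with the Nemofl/fl range rested on Nemofl/fl replicate 2 alone (-0.08), with p40-labelled replicates 3 and 5 below it.

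Antigen presentation genes were raised throughout the class I list and in part of the class II list. All 16 MHC class I pathway genes tested were called higher, with a median log2 fold change of 1.25, and 16 were also called without replicate 2 of both groups. Nlrc5, the activator of class I transcription, was at 36.8, 15.6, 16.8, 31.5 and 16.2 FPKM in p19-labelled and 1.97, 5.62, 2.92, 3.43 and 2.56 FPKM in p40-labelled libraries (log2 fold change 2.62 ± 0.34, adjusted p = 6.6e-05). H2-Q7, a non-classical class I gene, averaged 156 ± 75.6 against 17.8 ± 6.90 FPKM (SD, n = 5; log2 fold change 3.01 ± 0.44, adjusted p = 0.00021), but its reads can be shared with near-identical H2-Q genes. Neither gene overlapped between the groups.

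Of 10 MHC class II genes tested, 6 rose and 0 fell, with a median of 2.36, and 6 were called higher without replicate 2 of both groups. H2-Aa, the alpha chain of the I-A molecule, was at 1567, 943, 1713, 1469 and 1772 FPKM against 129, 269.9, 189, 235 and 184 FPKM (log2 fold change 2.90 ± 0.25, adjusted p = 2.3e-07). Cd74, the invariant chain that guides class II molecules, was at 3432, 2082, 3442, 3221 and 3255 against 267, 685, 386, 481 and 376 FPKM (log2 fold change 2.86 ± 0.26, adjusted p = 4.8e-07). In both genes p19-labelled replicate 2 was the lowest of its group and p40-labelled replicate 2 the highest of the other, and still the groups lay far apart. H2-DMb1, which helps load peptides, averaged 137 ± 28.1 against 14.5 ± 3.95 FPKM (SD, n = 5; log2 fold change 3.21 ± 0.27, adjusted p = 1.5e-07). Ciita, the master activator of class II genes, was at 16.9, 6.88, 8.72, 12.4 and 7.21 against 0.796, 3.06, 1.24, 2.18 and 1.28 FPKM (log2 fold change 2.32 ± 0.34, adjusted p = 0.00022). The members that did not pass were Ctss and the B-cell-associated H2-Oa, H2-Ob and H2-DMb2, with log2 fold changes of 0.13, -0.61, -1.01 and -0.66.

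The type I interferon list, which shares many targets with interferon-gamma, had 18 of 28 genes higher and 0 lower (median 0.91), and 19 higher without replicate 2 of both groups. With the smooth muscle score as a term, 7 of 28 were called. Zbp1, a nucleic acid sensor that can start necroptosis, was at 186, 117, 123, 197 and 117 against 31.8, 26.9, 23.6, 45.5 and 36.9 FPKM (log2 fold change 2.15 ± 0.26, adjusted p = 2.7e-05). Oas3, an antiviral oligoadenylate synthetase, averaged 12.1 ± 2.02 against 3.06 ± 1.28 FPKM (SD, n = 5; log2 fold change 1.88 ± 0.32, adjusted p = 0.0012). Neither gene overlapped between the groups.

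Matches to either motif were counted in the same 250-base windows. Of 41 interferon-gamma list genes, 25 had a RefSeq promoter, and 14 of these (56.0%) held a GAS or ISRE match. The share was 24.6% of the 264 promoters of genes higher in p19-labelled libraries, 9.93% of the 433 of lower genes and 11.1% of all 27025 promoters in the table. GAS matches alone were in 36.0% of the interferon-gamma list promoters and 8.13% of all promoters, and ISRE matches in 44.0% and 3.46%. Ubd and Cxcl9 held neither motif in this window, which says only that these letters are not there.

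Among genes of type 1 and cytotoxic lymphocytes, 6 of 16 rose and 0 fell (median 0.73), and 13 rose without replicate 2 of both groups. Gzma, a granule protease of cytotoxic cells, was at 12.8, 1.48, 6.53, 8.62 and 2.64 against 0.132, 0.562, 0.189, 0.780 and 0.249 FPKM, without overlap (log2 fold change 2.71 ± 0.41, adjusted p = 0.00036). Ccl5, a chemokine made by such cells, averaged 25.7 ± 17.7 against 5.00 ± 2.08 FPKM (SD, n = 5; log2 fold change 2.02 ± 0.52, adjusted p = 0.028), with p19-labelled replicate 2 inside the p40-labelled range. Ifng itself was at 3.50, 0.172, 0.242, 1.62 and 0.119 FPKM in p19-labelled and 0, 0.0605, 0.0428, 0.0848 and 0.0188 FPKM in p40-labelled libraries. The groups did not overlap, but the RNA was scarce and uneven, and the difference did not pass (log2 fold change 1.17 ± 0.51, adjusted p = 0.16).

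Few other genes of IL-12 and IL-23 signalling were called. Of 12 tested in the IL-12 family list, Il12b was lower as described and Il12rb1, the receptor chain that binds p40, was the only other call. An unadjusted p below 0.05 in limma was reached by 4 of the 12, these calls included. Without replicate 2 of both groups 3 were higher and 1 lower. Il12rb1 averaged 0.792 ± 0.441 against 0.241 ± 0.137 FPKM (SD, n = 5; log2 fold change 0.76 ± 0.22, adjusted p = 0.045), with overlapping groups. Il12a averaged 0.352 ± 0.0992 against 0.423 ± 0.372 FPKM (log2 fold change -0.05 ± 0.23, adjusted p = 0.91). Il23r was too low for the test, at no more than 0.0419 FPKM in any of the 10 libraries.

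The type 17 axis was sparse in both groups. Il17a was at 0, 0, 0.0628, 0.0447 and 0 FPKM in p19-labelled and 0, 0, 0.0443, 0 and 0.0195 FPKM in p40-labelled replicates, and Il22 had 1 library above 0 in each group. Neither was tested. Il17f was at 0.209, 0.306, 0.319, 0.137 and 0.381 against 0.346, 0.323, 0.509, 0.709 and 0.770 FPKM, with overlap (log2 fold change -0.41 ± 0.15, adjusted p = 0.1). Of 15 list genes tested, 1 fell, the nuclear receptor gene Rora, at 0.409 ± 0.118 against 0.754 ± 0.129 FPKM (SD, n = 5; log2 fold change -0.47 ± 0.13, adjusted p = 0.041), and 0 rose. Without replicate 2 of both groups 4 fell and 0 rose.

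Inflammatory mediators were raised in some p19-labelled mice and not in others. Il1b was at 70.7, 2.87, 27.9, 29.7 and 1.97 against 0.469, 2.61, 1.22, 1.44 and 0.411 FPKM. Replicates 1, 3 and 4 of the p19-labelled group were high, whereas replicates 2 and 5 lay near p40-labelled replicate 2 (log2 fold change 3.15 ± 0.87, adjusted p = 0.038). S100a8, a neutrophil calprotectin subunit, was at 168, 0.633, 18.4, 57.3 and 0.308 against 0.226, 11.8, 0.722, 0.285 and 0.126 FPKM and did not pass (log2 fold change 2.99 ± 1.35, adjusted p = 0.17). The same 3 p19-labelled replicates were high, and 2 p19-labelled replicates lay below p40-labelled replicate 2. Adjusted p for Il1b reached 0.27 among the alternatives tried.

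Of 20 neutrophil genes 1 rose, Ly6g, at 397, 422, 405, 389 and 364 against 217, 253, 329, 226 and 251 FPKM (log2 fold change 0.65 ± 0.15, adjusted p = 0.017), while the list median was 1.13. Ly6g was abundant in every library, including p19-labelled replicates 2 and 5, where S100a8 was low as given above. Ly6g thus did not follow S100a8, and which cells its RNA came from was not tested. Of 16 inflammatory cytokine genes 2 rose (Il1b and Lif), and of 17 myeloid chemokine and growth factor genes 1 rose, Ccl4. Among 23 monocyte and macrophage genes Fcgr4 and Cd14 rose and the scavenger receptor gene Cd163 fell, from 1.38 ± 0.263 to 0.576 ± 0.341 FPKM (SD, n = 5; log2 fold change -0.85 ± 0.24, adjusted p = 0.044). Without replicate 2 of both groups, 13 of 20 neutrophil genes and 5 of 23 monocyte and macrophage genes were called higher, as were 4 inflammatory cytokine genes and 4 myeloid chemokine and growth factor genes.

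Few genes of the other lymphocyte lists were called. Of 22 T cell genes, 12 regulatory T cell and checkpoint genes and 15 B cell genes, 0 were called in either direction, with medians of 0.38, 0.31 and -0.98. At an unadjusted p below 0.05 there were 4, 4 and 12 genes. All 15 B cell genes had a negative fold change. Bank1, a B cell scaffold gene, averaged 0.792 ± 0.723 against 2.23 ± 1.43 FPKM (SD, n = 5; log2 fold change -1.05 ± 0.36, adjusted p = 0.086). Without replicate 2 of both groups 8 of 22 T cell genes and 3 of 12 regulatory T cell and checkpoint genes were called higher. Ighg2c, an immunoglobulin heavy chain whose class is favoured by interferon-gamma, was the only one of 16 plasma cell genes called, and 3 were called higher without replicate 2 of both groups. Ighg2c was at 137, 3.26, 9.72, 117 and 22.9 against 0.568, 0.917, 4.48, 4.499 and 0.789 FPKM, with overlap (log2 fold change 3.64 ± 1.05, adjusted p = 0.045).

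Tnfrsf8, which encodes the TNF receptor family member CD30, was at 10.7, 3.58, 12.3, 18.2 and 4.09 FPKM in p19-labelled and 0.384, 0.428, 0.115, 0.115 and 0.515 FPKM in p40-labelled libraries (log2 fold change 3.46 ± 0.46, adjusted p = 9.7e-05). All p19-labelled values were several times the p40-labelled ones. Il18bp, the secreted antagonist of IL-18, was at 73.3, 16.5, 31.8, 78.6 and 21.3 against 4.36, 4.60, 3.80, 4.71 and 3.64 FPKM (log2 fold change 2.98 ± 0.43, adjusted p = 0.00019). Apol10a, of the apolipoprotein L family, averaged 17.1 ± 10.8 against 1.13 ± 0.391 FPKM (SD, n = 5; log2 fold change 3.19 ± 0.43, adjusted p = 0.0001). None of these 3 genes overlapped between the groups.

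Epithelial defence genes were divided. Of 22 antimicrobial genes 2 rose, Slpi and Pla2g2a, and 0 fell, with a median of 0.95. Slpi, a secreted protease inhibitor, was at 805, 242, 815, 908 and 95.2 FPKM in p19-labelled and 13.2, 309.5, 31.9, 51.7 and 23.6 FPKM in p40-labelled libraries (log2 fold change 3.26 ± 0.72, adjusted p = 0.013). p40-labelled replicate 2 was above p19-labelled replicates 2 and 5, so the groups overlapped. Clca4b, a chloride channel accessory gene of inflamed epithelium chosen after its values were seen, was at 191, 33.1, 51.4, 278 and 25.4 against 1.12, 49.97, 4.78, 3.44 and 1.94 FPKM (log2 fold change 3.83 ± 0.99, adjusted p = 0.029). It showed the same p40-labelled replicate 2 among the p19-labelled values. That library had the highest RNA of both genes in its group while its interferon-gamma median was 0.16. Without replicate 2 of both groups 10 of 22 antimicrobial genes were called higher, and with the smooth muscle score as a term 0 were called (median 0.37).

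Cell death genes rose in part. Of 31 tested, 9 rose and 0 fell (median 0.19), and 12 rose and 1 fell without replicate 2 of both groups. Ripk3, the necroptosis kinase, was at 73.2, 25.3, 33.9, 70.9 and 24.5 against 12.2, 40.2, 11.7, 9.95 and 9.37 FPKM, with p40-labelled replicate 2 above 3 of the p19-labelled libraries (log2 fold change 1.5 ± 0.39, adjusted p = 0.029). Mlkl, the protein that executes necroptosis, averaged 22.4 ± 7.87 against 9.95 ± 2.28 FPKM (SD, n = 5; log2 fold change 1.09 ± 0.23, adjusted p = 0.0097), and Casp8, which restrains it, 51.1 ± 12.0 against 34.1 ± 3.88 FPKM (log2 fold change 0.55 ± 0.14, adjusted p = 0.031). Mlkl did not overlap between the groups and Casp8 did. Of 27 genes of the NF-κB pathway, which NEMO serves, 0 were called by limma, against 7 at an unadjusted p below 0.05. The 2 with the smallest p were Cyld (log2 fold change 0.37 ± 0.12, adjusted p = 0.064) and Rbck1 (log2 fold change 0.18 ± 0.06, adjusted p = 0.067), and without replicate 2 of both groups 4 were called higher.

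**Figure D3:**
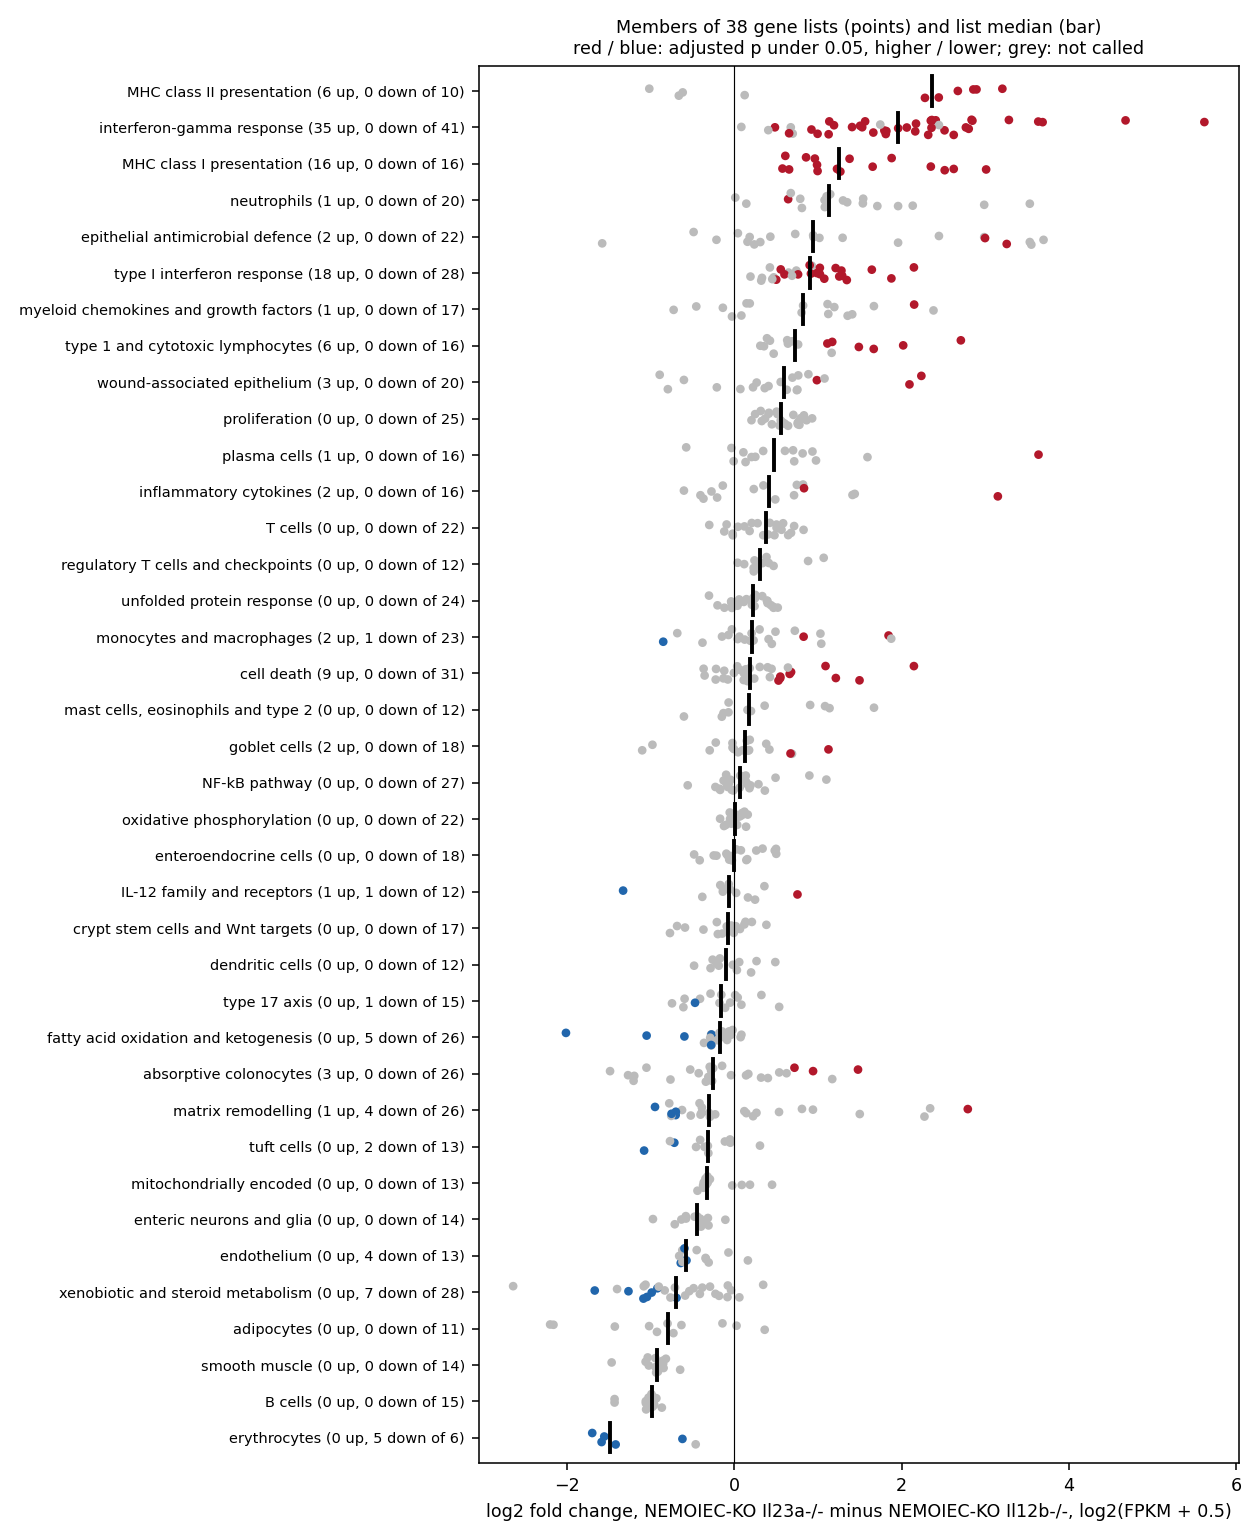
Log2 fold change (NEMOIEC-KO Il23a-/- minus NEMOIEC-KO Il12b-/-) of the members of 38 gene lists, with a bar at each list's median and colours for genes called higher (red) or lower (blue). MHC class II, interferon-gamma and MHC class I lists lie farthest to the right and the erythrocyte list farthest to the left.

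Genes called in the lists of colonocyte lipid and xenobiotic metabolism were all lower. Of 26 genes of fatty acid oxidation and ketogenesis 5 fell and 0 rose (median -0.17), and 8 fell without replicate 2 of both groups. Pdk4, a kinase that holds back pyruvate oxidation, averaged 0.931 ± 0.460 against 2.43 ± 0.827 FPKM (SD, n = 5; log2 fold change -1.05 ± 0.29, adjusted p = 0.037).

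Of 28 xenobiotic and steroid metabolism genes 7 fell and 0 rose (median -0.70), and 17 fell without replicate 2 of both groups. Aldh1a1, which makes retinoic acid, was at 4.81, 11.6, 6.06, 6.41 and 11.4 against 37.9, 8.48, 27.8, 34.95 and 31.6 FPKM (log2 fold change -1.67 ± 0.37, adjusted p = 0.012). Only p40-labelled replicate 2 fell among the p19-labelled values. Ces1d, a carboxylesterase, averaged 4.58 ± 1.21 against 12.2 ± 4.85 FPKM (SD, n = 5; log2 fold change -1.26 ± 0.36, adjusted p = 0.042).

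Markers of the absorptive lineage did not move as 1 group. Of 26 genes 3 rose and 0 fell, with a median of -0.26, but without replicate 2 of both groups 3 rose and 7 fell, and with array weights 4 rose and 5 fell. Krt20, a keratin of surface cells, was at 676, 549, 606, 915 and 722 against 402, 403, 542, 357 and 388 FPKM, without overlap (log2 fold change 0.72 ± 0.16, adjusted p = 0.011). Slc51b, a bile acid exporter subunit, averaged 37.9 ± 23.2 against 11.6 ± 2.88 FPKM (SD, n = 5; log2 fold change 1.48 ± 0.40, adjusted p = 0.035). Car1 and the chloride exchanger Slc26a3 averaged less in p19-labelled libraries but did not pass. Slc26a3 was at 52.5, 199, 131, 105 and 294 against 479, 61.2, 465, 513 and 494 FPKM (log2 fold change -1.27 ± 0.52, adjusted p = 0.13), and p40-labelled replicate 2 was nearly as low as the lowest of all 10.

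Fabp6, an ileal bile acid binding protein, rose to 84.9, 29.6, 187, 268 and 15.0 FPKM in p19-labelled replicates from 14.2, 33.9, 13.4, 10.3 and 12.6 FPKM (log2 fold change 2.20 ± 0.55, adjusted p = 0.026), with overlap. Among goblet cell genes 2 of 18 rose, Spink4 at 4748 ± 2803 against 2019 ± 616 FPKM (SD, n = 5; log2 fold change 1.13 ± 0.28, adjusted p = 0.025) and the transcription factor gene Spdef (log2 fold change 0.67 ± 0.18, adjusted p = 0.032). Of 13 tuft cell genes 2 fell, Ltc4s (log2 fold change -1.08 ± 0.26, adjusted p = 0.02) and Ptgs1 (log2 fold change -0.71 ± 0.20, adjusted p = 0.041), which both serve eicosanoid synthesis. Of 20 wound-associated epithelial genes 3 rose, among them Ly6a (log2 fold change 2.1 ± 0.39, adjusted p = 0.0025). Without replicate 2 of both groups 4 goblet cell genes rose and 2 fell, 4 tuft cell genes fell and 5 wound-associated genes rose. Of 25 proliferation genes 0 were called in limma and 15 had an unadjusted p below 0.05. All 25 fold changes were positive (median 0.56), and 24 were called higher without replicate 2 of both groups. With the smooth muscle score as a term 0 were called (median 0.25).

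Retnla, which encodes the RELMα protein of alternatively activated macrophages, showed the largest fall among the genes named. It was at 0.231, 0.623, 0.927, 1.85 and 1.11 FPKM in p19-labelled and 21.6, 3.58, 28.5, 14.2 and 28.2 FPKM in p40-labelled libraries, with p40-labelled replicate 2 the lowest of its group and still above every p19-labelled library (log2 fold change -3.58 ± 0.61, adjusted p = 0.0012). Inmt, a methyltransferase gene, averaged 0.896 ± 0.364 against 5.54 ± 2.52 FPKM (SD, n = 5; log2 fold change -2.02 ± 0.52, adjusted p = 0.028). Capsl averaged 0.428 ± 0.247 against 2.46 ± 0.998 FPKM (log2 fold change -1.62 ± 0.29, adjusted p = 0.0018), with p19-labelled replicate 2 just under the lowest p40-labelled library. Snora34, a small nucleolar RNA that poly(A) selection captures poorly, was listed at 0 in 4 p19-labelled libraries and averaged 8.00 ± 3.20 FPKM in p40-labelled ones (log2 fold change -3.43 ± 0.84, adjusted p = 0.022). Pnmal2 averaged 2.35 ± 0.676 against 8.58 ± 2.42 FPKM (log2 fold change -1.67 ± 0.23, adjusted p = 0.0001), without overlap.

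Erythrocyte RNA was lower in p19-labelled colon. Of 6 genes tested 5 fell and 0 rose (median -1.48), and 5 fell without replicate 2 of both groups. Hbb-bs, an adult beta globin, was at 10.5, 12.1, 6.79, 14.2 and 7.75 against 40.1, 31.5, 24.7, 39.5 and 33.1 FPKM (log2 fold change -1.70 ± 0.37, adjusted p = 0.011), and Hba-a2, an alpha globin, at 2.63, 4.63, 2.34, 3.66 and 2.67 against 14.3, 10.6, 6.31, 13.2 and 9.02 FPKM (log2 fold change -1.58 ± 0.32, adjusted p = 0.005). Neither overlapped between the groups, and the globin pairs are near-identical, so reads may be split between copies. With the smooth muscle score as a term 1 of 6 was called.

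The endothelial list moved the same way, with 4 of 13 genes lower and 0 higher (median -0.57), and 3 lower without replicate 2 of both groups. Pecam1, an adhesion molecule of vessel walls, averaged 11.4 ± 3.50 against 17.4 ± 2.00 FPKM (SD, n = 5; log2 fold change -0.64 ± 0.18, adjusted p = 0.04), and Tek, the angiopoietin receptor, 0.989 ± 0.343 against 1.75 ± 0.311 FPKM (log2 fold change -0.61 ± 0.16, adjusted p = 0.028). Among 26 matrix genes 4 fell and 1 rose, and 7 fell and 3 rose without replicate 2 of both groups. Timp2, a metalloproteinase inhibitor, averaged 26.9 ± 6.70 against 51.6 ± 8.44 FPKM (log2 fold change -0.95 ± 0.21, adjusted p = 0.013), and Mmp7, the matrilysin gene, rose to 35.6, 0.595, 10.0, 7.03 and 0.964 FPKM from 0.311, 1.19, 0.0990, 0.123 and 0.0653 FPKM (log2 fold change 2.79 ± 0.81, adjusted p = 0.046). Mmp7 was high in p19-labelled replicates 1, 3 and 4 and overlapped the p40-labelled range in the other two.

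Smooth muscle RNA was measured beside these groups. Of 14 smooth muscle genes 0 were called in limma and 7 had an unadjusted p below 0.05, and all 14 fold changes were negative (median -0.92). With array weights 6 were called lower, and without replicate 2 of both groups all 14 (median -1.51), but those libraries were left out for their score over these same genes. Acta2, the smooth muscle actin, was at 463, 1114, 474, 489 and 690.2 against 1481, 631, 1919.5, 1196 and 1384 FPKM, with replicate 2 of each group inside the range of the other (log2 fold change -1.03 ± 0.40, adjusted p = 0.12). The part of muscle RNA in the results above was not tested beyond the fit that holds the score as a term. In that fit 29 of 41 interferon-gamma genes and 14 of 16 MHC class I genes were still called higher, but only 2 of 31 cell death genes, and 1 of 28 xenobiotic metabolism genes was called lower. No fatty acid oxidation or endothelial gene was called in it. In the same fit no gene was called from the antimicrobial, inflammatory cytokine, myeloid chemokine and growth factor, or monocyte and macrophage lists. Nor was any from the plasma cell, goblet cell, tuft cell, proliferation or type 17 lists. With sex-linked RNA as a term, 1 of 22 antimicrobial, 0 of 16 inflammatory cytokine and 0 of 18 goblet cell genes were called. With only the 10 libraries compared in the fit, 28 interferon-gamma, 5 cell death, 1 xenobiotic metabolism and 2 fatty acid oxidation genes were called, and 0 endothelial genes in limma, where 8 of 13 had an unadjusted p below 0.05 in the fit of all libraries.

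The contrast was then set beside the effect of NEMO loss alone, NEMOIEC-KO against Nemofl/fl, which shares no library with it. There 2291 genes (11.9%) were higher and 3911 (20.3%) lower in limma, 32.2% in all. Of the 372 genes higher in p19-labelled than p40-labelled libraries, 341 were also higher in NEMOIEC-KO than in Nemofl/fl, which is 91.7% of the former and 14.9% of the latter list. Of the 613 lower genes 474 were lower in both, 77.3% and 12.1% of the lists. Opposite calls numbered 1 and 4, and 30 and 135 genes were not called for NEMO loss. The genes with the largest changes for NEMO loss were Clca4b, Retnlb and Ido1 (higher) and Cyp2c55, Slc30a10 and Mptx1 (lower). Cyp2c55, a cytochrome P450 gene of the colonocyte, was at 1.16, 16.6, 15.3, 1.39 and 13.3 FPKM in p19-labelled and 47.6, 5.08, 45.6, 102 and 88.1 FPKM in p40-labelled replicates, which did not pass (log2 fold change -2.64 ± 0.89, adjusted p = 0.08).

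**Figure D4:**
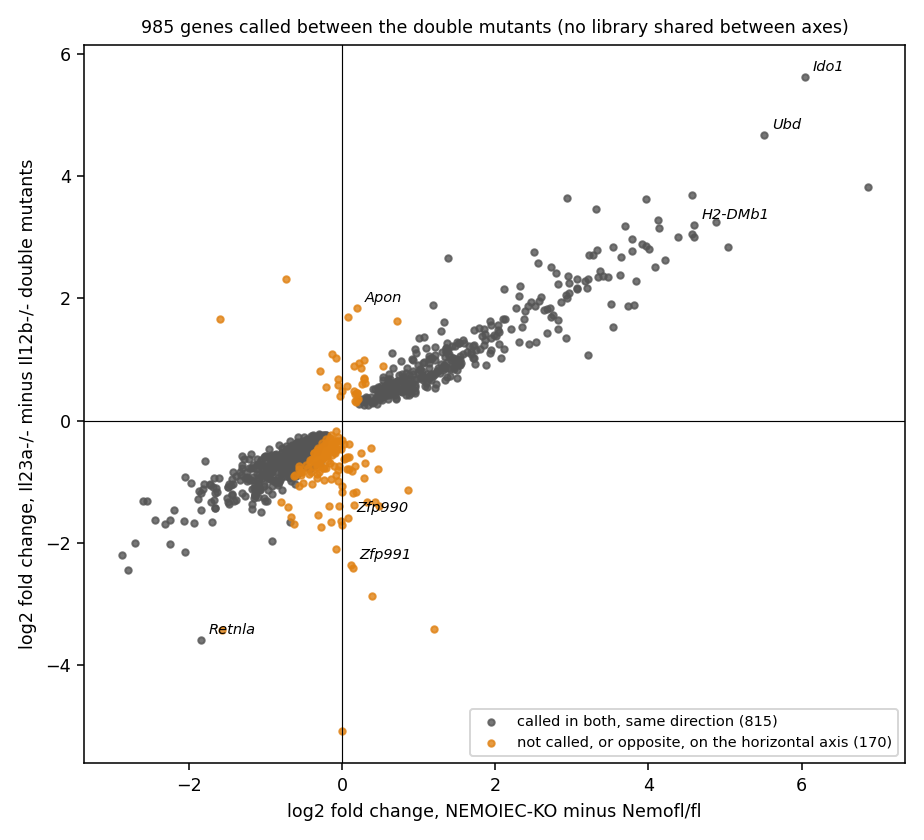
Log2 fold change of the 985 genes called between the double mutants (vertical, Il23a-/- minus Il12b-/-) against that between NEMOIEC-KO and Nemofl/fl (horizontal), 1 point per gene. The 815 genes called in the same direction on both axes (grey) lie along a rising diagonal, and 170 others (orange) lie mostly near the vertical axis.

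Each double mutant was also set beside the group it might resemble, and each of these comparisons shares 5 libraries with the main one. Neither comparison is balanced for sex. By sex-linked RNA, 4 of 5 p19-labelled and 1 of 5 NEMOIEC-KO mice were female, as were 2 of 5 p40-labelled and 0 of 5 Nemofl/fl mice. Between p19-labelled and NEMOIEC-KO libraries 9 genes were higher (0.0467%) and 7 lower (0.0363%), 0.083% in all, against 2026 at an unadjusted p below 0.05. The total was 6 to 36 with single libraries left out, lowest without p19-labelled replicate 4 and highest without p19-labelled replicate 1. None of the 41 interferon-gamma genes was called in limma there, 2 had an unadjusted p below 0.05, and the median was -0.22. Nfkbiz, an NF-κB cofactor induced by IL-17, averaged 13.5 ± 1.03 FPKM in p19-labelled and 26.7 ± 2.86 FPKM in NEMOIEC-KO libraries (SD, n = 5; log2 fold change -0.96 ± 0.14, adjusted p = 0.0049), and Duox2, an epithelial oxidase, 18.3 ± 3.77 and 63.0 ± 5.78 FPKM (log2 fold change -1.77 ± 0.33, adjusted p = 0.028). Steap4, a metalloreductase gene, was likewise lower (log2 fold change -1.96 ± 0.35, adjusted p = 0.023). In p40-labelled libraries Nfkbiz and Duox2 averaged 12.2 ± 2.34 and 8.76 ± 1.80 FPKM, and neither passed between the double mutants (adjusted p = 0.53 and 0.066 in limma).

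Between p40-labelled and Nemofl/fl libraries 48 genes were higher (0.249%) and 23 lower (0.119%), 0.369% in all, against 2708 at an unadjusted p below 0.05. The total was 37 to 120 with single libraries left out, lowest without p40-labelled replicate 2 and highest without p40-labelled replicate 1. Of the 41 interferon-gamma genes 1 was called, higher, with a median of 0.38. Ifi47, an interferon-inducible GTPase gene, averaged 7.97 ± 2.55 FPKM in p40-labelled and 1.78 ± 0.435 FPKM in Nemofl/fl libraries (SD, n = 5; log2 fold change 1.87 ± 0.38, adjusted p = 0.026), against 68.9 ± 44.5 FPKM in p19-labelled ones. Its p40-labelled level thus lay between the other groups. All Nemofl/fl libraries carry library code K002000081 and all p40-labelled ones K002000079, so library code and genotype cannot be told apart in this comparison. A comparison that calls few genes does not show that groups are alike.

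The 170 genes not called in the same direction for NEMO loss make up 0.882% of genes tested, and some of them stood apart in 1 double mutant. Apon, the apolipoprotein N gene (chromosome 10, 0.042 Mb from Il23a), was at 1.01, 2.97, 1.39, 1.76 and 0.993 FPKM in p19-labelled and 0.0479, 0.101, 0.0458, 0.0606 and 0.0673 FPKM in p40-labelled libraries (log2 fold change 1.84 ± 0.15, adjusted p = 1.5e-07). It averaged 0.0296 FPKM in Nemofl/fl and 0.111 FPKM in NEMOIEC-KO, both below every p19-labelled library. Rnf41, a ubiquitin ligase gene 0.116 Mb from Il23a, averaged 4.26 ± 0.460 against 7.47 ± 1.01 FPKM (SD, n = 5; log2 fold change -0.74 ± 0.11, adjusted p = 0.00033). Gls2, a glutaminase gene at 0.102 Mb, was higher (log2 fold change 0.69 ± 0.17, adjusted p = 0.022). Also called near Il23a were genes that NEMO loss changed in the same direction, among them Stat2 and Lrp1. Stat2, an interferon signalling factor gene at 0.026 Mb, was higher (log2 fold change 1.02 ± 0.19, adjusted p = 0.0021), and Lrp1 at 0.758 Mb was lower (log2 fold change -0.69 ± 0.11, adjusted p = 0.00081).

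Within 10 Mb of Il23a (chromosome 10, 128296139 to 128298752, GRCm38) 7 of 129 genes tested were called, 5.43%, near the 5.11% of all genes. However, all 7 lay within 0.758 Mb of Il23a, so the share over 10 Mb does not describe the stretch next to the gene. The genes tested within that shorter distance were not counted. Within 10 Mb of Il12b (chromosome 11, 44400063 to 44414033) the share was 19 of 149, 12.8%, of which 5 belong to the interferon-gamma list, among them Tgtp1, Ifi47 and Irf1. Other called genes, such as Psme2b and Olfr56 at 4.55 and 4.58 Mb, lie beside Tgtp1 at 4.59 Mb. Like Tgtp1, these 2 were also higher for NEMO loss. Pwwp2a, Pttg1, Flt4 and Adamts2, at 0.718, 0.980, 5.21 and 6.20 Mb, were not called in the same direction for NEMO loss. Around Il12a, which is mutated in neither group, it was 3 of 65, 4.62%.

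Another set stood high in p40-labelled libraries. Zfp990, a zinc-finger protein gene (chromosome 4, 145510759 to 145539188), was at 0.7503, 1.00, 1.11, 1.49 and 0.914 FPKM in p40-labelled libraries and at 0.0531, 0, 0, 0 and 0 FPKM in p19-labelled ones (log2 fold change -1.59 ± 0.10, adjusted p = 2.2e-09). Zfp991, on the same chromosome (147132038 to 147180579), was at 3.97, 6.28, 5.46, 7.01 and 2.43 against 0.707, 0.219, 0.775, 0.581 and 0.402 FPKM (log2 fold change -2.37 ± 0.28, adjusted p = 1.5e-05). The Nemofl/fl and NEMOIEC-KO means were 0.0176 and 0.0493 FPKM for Zfp990 and 0.635 and 0.722 FPKM for Zfp991. In both genes the p40-labelled libraries stood above all p19-labelled ones and above both reference means, and against Nemofl/fl alone Zfp990 was also called (log2 fold change 1.57 ± 0.10, adjusted p = 1.7e-09).

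Tescl, a tescalcin-like gene on chromosome 7, was at 2.11, 1.04, 1.01, 1.13 and 1.32 FPKM in p40-labelled and 0.0570, 0, 0.0305, 0 and 0.0910 FPKM in p19-labelled libraries (log2 fold change -1.74 ± 0.15, adjusted p = 2.3e-07), against means of 0.165 in Nemofl/fl and 0.0368 in NEMOIEC-KO. Far2, a fatty acyl-CoA reductase gene on chromosome 6, was at 4.28, 3.00, 2.56, 3.20 and 2.48 against 1.14, 0.745, 0.613, 0.670 and 1.15 FPKM (log2 fold change -1.40 ± 0.15, adjusted p = 3.6e-06), with means of 1.104 and 0.922 FPKM in the references. Miip, on chromosome 4, went the other way, at 21.8, 13.6, 8.28, 12.6 and 17.0 FPKM in p40-labelled and 28.8, 31.7, 35.8, 28.4 and 27.9 FPKM in p19-labelled libraries (log2 fold change 1.09 ± 0.17, adjusted p = 0.00044). None of these 3 genes overlapped between the double mutants.

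By position, in bins of 10 Mb laid out after the values were seen, 138 of 243 bins with at least 20 genes tested held none of the 170 genes. The bin at 140 to 150 Mb of chromosome 4, with Zfp990, Zfp991 and Miip, held 10 of 116 genes tested (8.62%). Chromosome 6 at 140 to 150 Mb, with Far2 and the clock gene Arntl2, held 6 of 67 (8.96%). Chromosome 7 at 10 to 20 Mb, with Igsf23 and Ceacam20, held 10 of 137 (7.30%), and chromosome 11 at 40 to 50 Mb, with Il12b, 4 of 72 (5.56%). Among bins with a share of 4.88% or more, these 4 held at least 4 of the genes. In that ranking, 2 bins with 2 genes each had higher shares than the last of them, at 7.41% and 6.45%. The bin that holds Il23a, with Apon, Rnf41 and Gls2, had a share below 4.88%. Igsf23 averaged 56.0 ± 8.58 FPKM in p40-labelled, 25.8 ± 7.46 in p19-labelled, 28.8 ± 8.32 in NEMOIEC-KO and 15.6 ± 5.10 in Nemofl/fl libraries (SD, n = 5; log2 fold change -1.14 ± 0.21, adjusted p = 0.0029 between the double mutants). Arntl2 averaged 0.864 ± 0.0767, 2.30 ± 0.348, 1.69 ± 0.572 and 1.84 ± 0.743 FPKM in the same order (log2 fold change 1.03 ± 0.19, adjusted p = 0.0022).

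**Figure D5:**
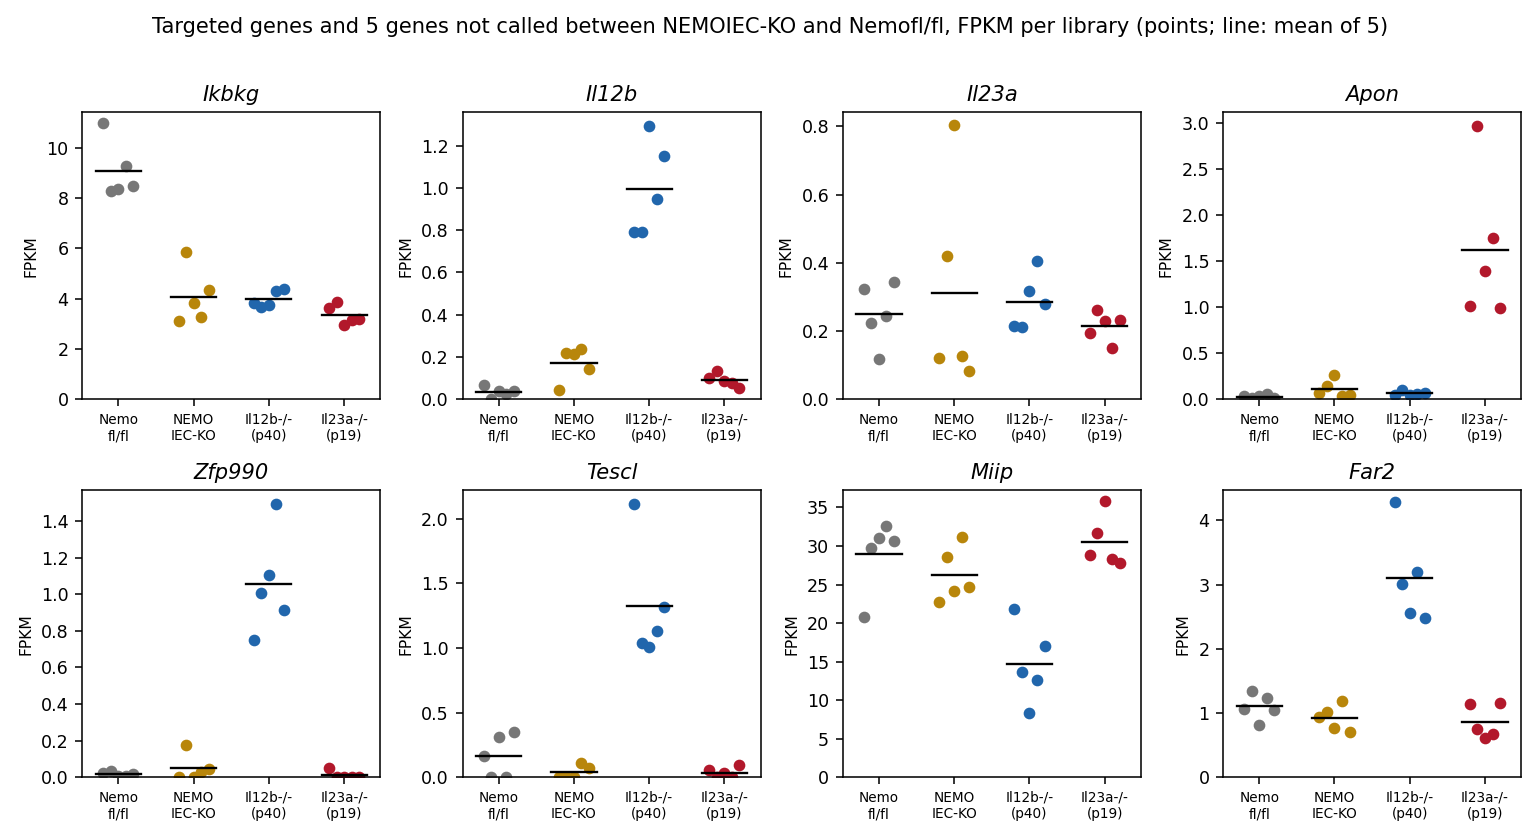
FPKM (linear axis) of Ikbkg, Il12b, Il23a and 5 genes not called between NEMOIEC-KO and Nemofl/fl, in each library of 4 genotypes, with a line at the mean of 5. Il12b, Zfp990, Tescl and Far2 stand high in the Il12b-/- libraries, Miip low, and Apon stands high in the Il23a-/- libraries.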

How the data were processed

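Colon RNA of 25 mice was sequenced from stranded, poly(A)-selected, paired-end libraries, per the labels' protocols. The authors deposited FPKM per gene and library. The submitters' processing notes name TopHat2 2.0.10, Cufflinks 2.1.1, DESeq2 1.10.1 and GRCm38, and the role of each and the annotation release are not given in the sources used here. Read depth is unknown, so no counting interval or detection limit can be given.

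Values were transformed to log2(FPKM + 0.5), and the 19266 genes that reached 0.2 FPKM in 5 or more libraries were tested. All 25 libraries entered 1 limma model (3.58.1, R 4.3.3; a mean per genotype, empirical Bayes with trend, 20 residual degrees of freedom). Tests were two-sided, with Benjamini-Hochberg adjustment over all genes and a threshold of 0.05. Fold changes contain the added 0.5, understate changes of weakly expressed genes and are given with their standard error. The fit was tested on simulated data. Replicates are separate mice, and replicate numbers were not used as pairs. The deposited table holds 49452 identifiers, of which 49109 matched a symbol and 49195 a GRCm38 position (GENCODE M21).

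The comparison, the 38 gene lists and the rules were chosen with earlier results of these data known, so no count over a list is independent support. The naming rule took the targeted genes, the 12 largest called changes per direction without overlap and with a mean of at least 1 FPKM, up to 2 called genes per direction of each list (otherwise the 2 smallest p), up to 4 called genes near each cytokine locus, 3 per direction in the other comparisons, and tissue markers. Predicted genes, genes without a symbol, receptor segments and sex-linked genes were counted, not named. Results on 2 genes are not reported here. Ciita, Ifng, Il17a, Il17f, Il22, Il23r, S100a8, Cyp2c55, Clca4b, Nos2, Mlkl, Casp8, Far2, Miip, Arntl2, Igsf23, Gls2, Ctss, H2-DMb2, H2-Oa, H2-Ob, Reg3b, Igtp and Gbp2 were added after their values were seen. Promoter sequences came from RefSeq.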

Additional observations from a re-analysis of the deposited data

Results flagged for a closer look

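Of 64 groups of 5 values examined for 1 library far from the rest, 6 met the limit (a gap to the nearest value above 0.71 of the whole range). Chance gives about 1 in 20 for normally distributed values. FPKM are bounded at 0, so that rate need not hold here. Where the other 4 values are 0, as for Snora34 and Zfp990 below, any value above 0 meets the limit. Cd74 was lowest in p19-labelled replicate 2, at 2082 FPKM against 3221 to 3442 in the other 4. The same library held Capsl at 0.861 FPKM, against 0.270 to 0.405 in the others, and Snora34 at 3.13 FPKM where the other 4 are listed at 0. Zfp990 was at 0.0531 FPKM in p19-labelled replicate 1 and listed at 0 in the other 4. Il12a was at 1.08 FPKM in p40-labelled replicate 2, against 0.187 to 0.327 in the other 4. Relative depth was 0.729 in p19-labelled replicate 5, against 0.988 to 1.07 in the others.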

How the results depend on the processing

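Of 80 named genes called between the double mutants, 38 were called under all 23 alternatives and 0 changed direction. Those that lost their call under at least 1 alternative included Inmt, Snora34, Hbb-bs, Il12rb1, Ccl5, Rora, Ighg2c, Ly6g, Fcgr4, Cd14, Cd163, Ccl4, Il1b, Lif, Slpi, Clca4b, Pla2g2a, Ripk3, Mlkl, Casp8, Aldh1a1, Ces1d, Pdk4, Krt20, Slc51b, Fabp6, Spink4, Spdef, Ltc4s, Ptgs1, Mmp7, Timp2, Pecam1, Tek, Gls2 and Ceacam20. The 985 calls became 561 with no filter, 397 with only the 10 libraries compared, 568 with sex-linked RNA as a term, 226 with the smooth muscle score as a term, 3403 with array weights and 3580 without replicate 2 of both groups (added after seeing the data), and 325 to 2710 with single libraries left out. Interferon-gamma members called were 29 to 39 of 41 with single libraries left out, and the main count was 35. The median of 10 lists changed sign under some alternative, and all of those lists had 3 or fewer members called in a direction.

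Between p19-labelled and NEMOIEC-KO libraries the 16 calls became 7 with only those 10 libraries, 3 with library code K002000079 alone, 4 with sex-linked RNA, 117 with the smooth muscle score, and 6 to 36 with single libraries left out. Library code K002000079 alone leaves NEMOIEC-KO replicates 1 and 2 against p19-labelled replicates 1 to 4. Library code and the smaller number of libraries cannot be told apart there. Between p40-labelled and Nemofl/fl libraries the 71 calls became 37 with sex-linked RNA, 425 with array weights and 37 to 120 with single libraries left out. For NEMOIEC-KO against Nemofl/fl the 6202 calls became 1986 with the smooth muscle score and 4251 to 6310 with single libraries left out. The cause was not tested.

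Libraries with the same replicate number were no more alike than others: deviations correlated at a median of -0.048 over 5 same-numbered pairs and 0.0767 over 20 others, and 0 of 10 libraries correlated best with its own number. Such correlations cannot show whether mice were littermates or were handled together. With the replicate block the double-mutant contrast gave 833 calls and p19-labelled against NEMOIEC-KO 8.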

Other observations

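The NEMOIEC-KO Il12a-/- libraries, which by label lack p35 and so IL-12 but not IL-23, entered no comparison. Ido1, Ubd, H2-Aa and Cd74 averaged 8.72 ± 14.1, 9.98 ± 13.4, 384 ± 196 and 843 ± 449.8 FPKM there (SD, n = 5), above the p40-labelled and below the p19-labelled means. Gzma averaged 0.358 ± 0.390 FPKM and Retnla 10.9 ± 10.4 FPKM. Zfp990, Tescl and Apon averaged 0.0395 ± 0.0473, 0.121 ± 0.0812 and 0.0849 ± 0.0223 FPKM. Reg3b, an antimicrobial lectin gene, averaged 33.0 ± 72.4 FPKM, and was at 13.1, 0.254, 1.30, 3.96 and 0 FPKM in p19-labelled and 0.305, 2.15, 0.146, 0.0722 and 1.44 FPKM in p40-labelled replicates 1 to 5, against 91.6 ± 186 FPKM in NEMOIEC-KO. It overlapped between the double mutants (log2 fold change 0.95 ± 1.37, adjusted p = 0.69 in limma).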
